A study of Mus musculus with 20 samples.

Results

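The 85 genes described here are nuclear genes named for subunits of the 5 oxidative phosphorylation complexes of the mitochondrion. They were taken from the 33119 genes of the count table by their symbols, so that a subunit gene with another form of symbol is left out. The symbols were Nduf genes of complex I, Sdha to Sdhd of complex II, Uqcr genes and Cyc1 of complex III. To these came Cox4i to Cox8 genes of complex IV and Atp5 genes of complex V. Complex I held 35 of them, complex II 4, complex III 11, complex IV 19 and complex V 16. Ndufa4 and its relative Ndufa4l2 carry a complex I name but were placed in complex IV, to which the NDUFA4 protein belongs. After the filter on low counts, 83 of the 85 were tested among 21724 genes, and the 2 left out were the processed pseudogenes Uqcrh-ps1 and Uqcrh-ps2. RNA came from the hippocampus of 20 mice aged 16 months on the strain C57BL/6, 5 in each of 4 groups. The hAPOE3 mice were males S154 to S158 and females S144 to S148, and the hAPOE4 mice were males S174 to S178 and females S164 to S168. All mice were homozygous for a targeted replacement of the mouse Apoe gene by human APOE3 or human APOE4, so that no group carried mouse Apoe.

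Oxidative phosphorylation passes electrons from NADH through complex I, and from succinate through complex II, to complexes III and IV, where oxygen is reduced, and complex V uses the proton gradient so formed to make ATP. Neurons draw most of their ATP from this chain. Complex II is encoded by nuclear genes only, while the other complexes join nuclear subunits to a few subunits made from the mitochondrial genome, and many nuclear subunits are small proteins with short transcripts.

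Counts per mouse ran from 35778879 to 52520279, and 75 members had a mean of at least 10 CPM (counts scaled to library size, with edgeR's TMM factors). The share of counting noise in the spread between mice was not measured. The 12 neuronal markers, among them Prox1 and Wfs1 of the hippocampal fields, were all tested and summed to between 5720 and 7976 CPM. Several libraries stood apart. The 12 choroid plexus markers summed to between 273 and 411 CPM in 8 mice and to between 937 and 9570 CPM in the other 12. Thalamic neuron markers summed to 758.5 CPM in S158, 711 CPM in S176 and 615 CPM in S178, against at most 212 CPM in the other mice, and oocyte markers summed to between 84.7 and 163.6 CPM in 4 of the 5 hAPOE4 males (S174 had 2.87 CPM), against at most 4.89 CPM in all other groups. In RNA from whole tissue, fewer cells of a type and less RNA per cell cannot be told apart.

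The promoters of 4 members are printed here to show the motifs counted over all members, and how a tissue isoform differs from its main form in them. RefSeq promoter windows (GRCm38.p6, 250 bases before to 50 after the start) were found for 68 members, with 73 windows in all, 2 of the genes by an older symbol. Motifs were searched on both strands and are in capitals below: NRF1 (GCGCATGC or TGCGCATG), ETS/GABP (CCGGAAG), YY1 (AAGATGGC), SP/KLF (GGGCGG), the CCAAT box (CCAAT), the TATA box (TATAAA) and ERR (CAAGGTCA). The widely expressed subunits shown are Ndufb8 (an accessory subunit of complex I), Sdhb (the iron-sulfur subunit of complex II) and Cox8a. Cox8a is the main form of the smallest complex IV subunit, and Cox8b is the form of Cox8 known from heart and skeletal muscle. Each run covers 250 bases before to 30 after the start, read 5′ to 3′ on the strand of the gene.
Ndufb8 chr19:44555413-44555692 (minus strand): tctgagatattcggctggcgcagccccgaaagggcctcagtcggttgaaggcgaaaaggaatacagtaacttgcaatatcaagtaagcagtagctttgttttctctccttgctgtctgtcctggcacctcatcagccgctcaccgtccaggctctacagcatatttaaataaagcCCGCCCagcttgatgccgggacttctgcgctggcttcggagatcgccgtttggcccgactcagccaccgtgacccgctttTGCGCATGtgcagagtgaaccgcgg
Sdhb chr4:140961021-140961300 (plus strand): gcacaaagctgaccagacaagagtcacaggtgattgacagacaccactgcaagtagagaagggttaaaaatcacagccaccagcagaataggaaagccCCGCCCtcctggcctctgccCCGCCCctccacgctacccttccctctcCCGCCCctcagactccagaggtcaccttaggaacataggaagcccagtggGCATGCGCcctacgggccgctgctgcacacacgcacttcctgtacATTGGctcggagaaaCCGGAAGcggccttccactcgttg
Cox8a chr19:7217587-7217866 (minus strand): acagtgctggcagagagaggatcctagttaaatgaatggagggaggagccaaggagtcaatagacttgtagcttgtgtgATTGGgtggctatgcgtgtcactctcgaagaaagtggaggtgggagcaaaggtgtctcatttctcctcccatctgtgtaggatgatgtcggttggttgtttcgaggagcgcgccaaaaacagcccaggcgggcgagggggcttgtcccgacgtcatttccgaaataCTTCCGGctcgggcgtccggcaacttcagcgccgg
Cox8b chr7:140900417-140900696 (minus strand): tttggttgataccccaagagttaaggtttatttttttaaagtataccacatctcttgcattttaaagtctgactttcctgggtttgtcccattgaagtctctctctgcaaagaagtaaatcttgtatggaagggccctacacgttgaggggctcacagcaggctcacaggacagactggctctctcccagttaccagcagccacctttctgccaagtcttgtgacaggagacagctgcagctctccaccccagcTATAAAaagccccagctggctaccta

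Sdhb held an NRF1 match 54 bases before the start, 3 SP/KLF matches, a CCAAT box and an ETS/GABP match, and none of these overlapped another. Ndufb8 held an NRF1 and an SP/KLF match in the stretch printed and a YY1 match in the last bases of the window, which are not printed. Cox8a held an ETS/GABP match and a CCAAT box, and Cox8b a TATA box alone. Other alternative isoforms were unlike Cox8b: Cox6b2 held SP/KLF and CCAAT matches, Cox7b2 these and a TATA box, and Cox7a1 a CCAAT box alone. Some members, such as Cox7c and Ndufa4, held none of the motifs. Over the 73 windows, NRF1 matches stood in 17.8%, against 3.29% of all 32851 promoters of the same length in the table. The shares were 21.9% against 8.86% for ETS/GABP, 13.7% against 2.75% for YY1 and 5.48% against 1.56% for ERR. They were closer for SP/KLF (39.7% against 35.7%), the CCAAT box (42.5% against 37.4%) and the TATA box (11% against 13.6%). YY1 matches were found in 7 of 33 windows of complex I and 3 of 18 of complex V, and in 0 of 14 of complex IV. These matches are letters in a window, and no binding was measured.

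Complex IV and complex V genes were the most abundant per gene. Per kilobase of transcript (the median length of the gene's transcripts in the annotation), the 5 complexes held 28% (I), 2.89% (II), 11.2% (III), 31.8% (IV) and 26.1% (V) of the members' summed level. The median member reached 85.4 CPM per kilobase in complex I, 71 in II, 103 in III, 169 in IV and 167.9 in V. The highest levels per kilobase were 212 CPM for Ndufb9 in complex I, 136 for Sdha (the flavoprotein that holds the succinate site) in II, 269 for Uqcrh (the hinge protein) in III, 549.6 for Cox8a in IV and 463 for Atp5b (the catalytic beta subunit of the ATP synthase) in V. Lowest stood Ndufb4 with 19.5 CPM per kilobase in complex I, Sdhc with 40.5 in II, Cyc1 with 53.4 among those tested in III, Cox7b2 with 0.421 in IV and Atp5s with 9.14 in V. The plot of levels shows these orders, which compare genes through annotated lengths and therefore carry any error in them.

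**Figure D1:**
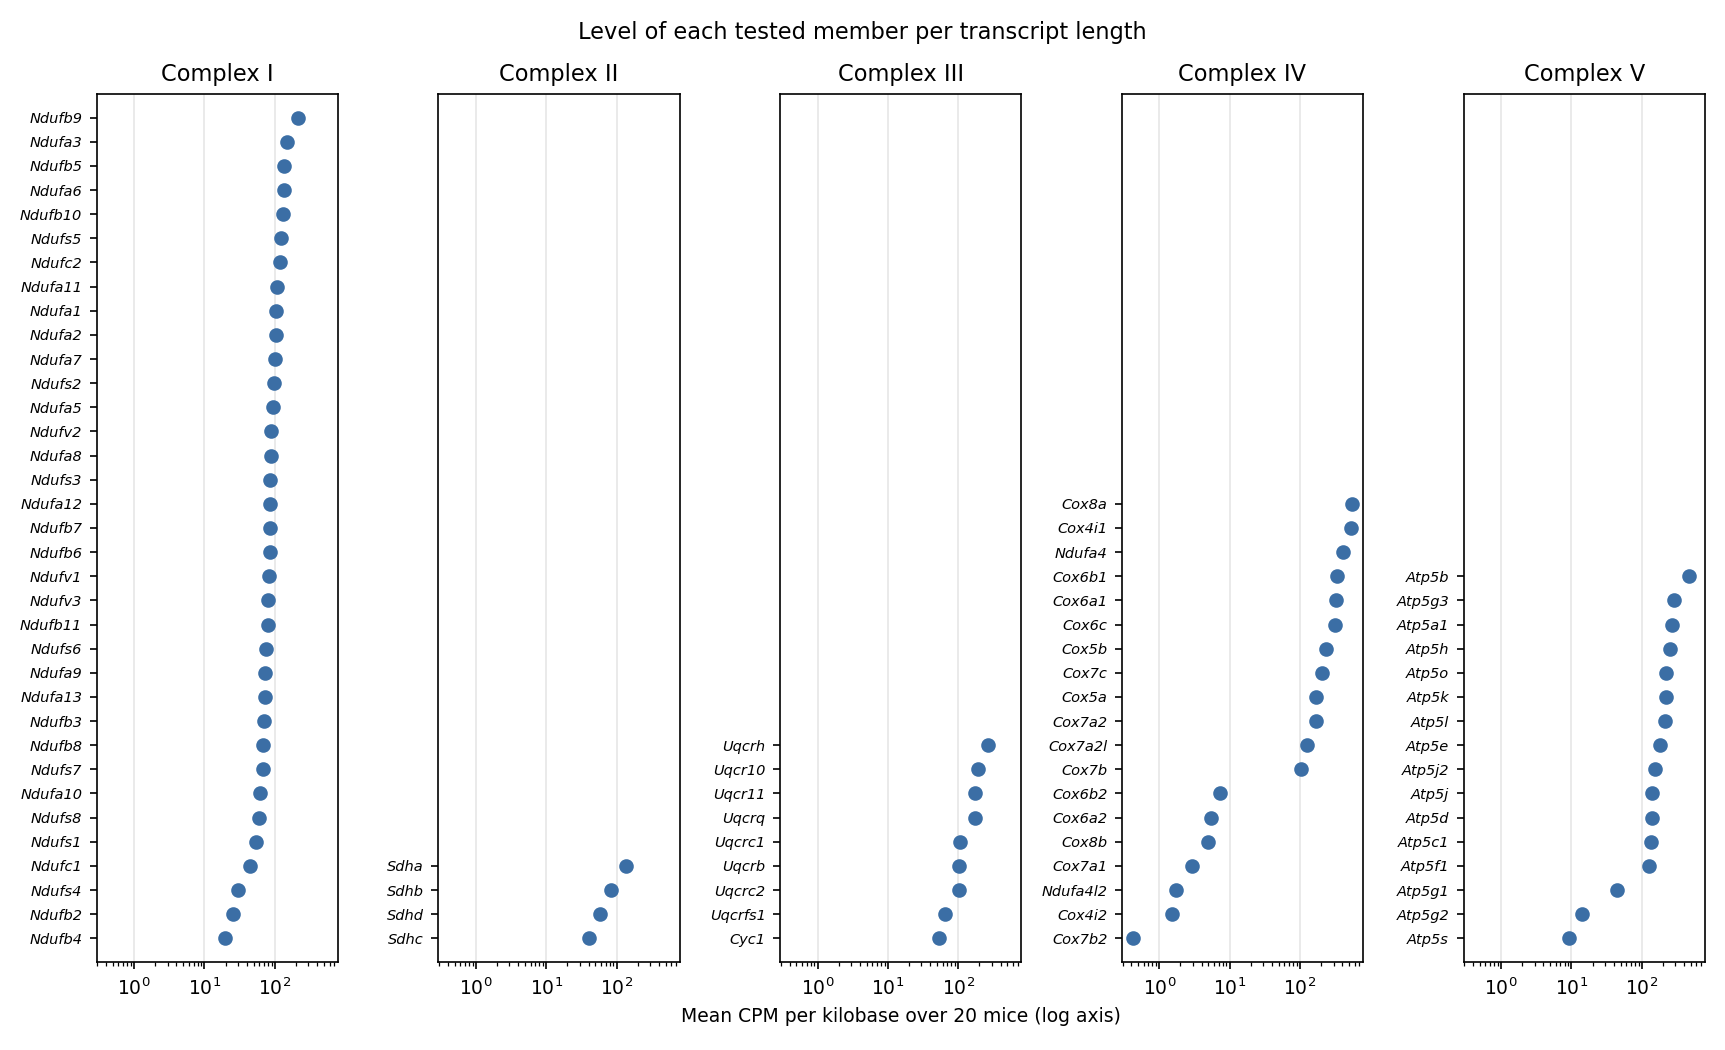
Mean level of the 83 tested members over the 20 mice, in CPM per kilobase of transcript on a log axis, ordered within each complex. Most points lie between 19.5 and 549.6 CPM per kilobase, and Atp5s and 7 alternative isoforms of complex IV lie below 10, from 9.14 to 0.421.

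Several subunits come as a main and a tissue form, and the main form held nearly all of the family's level per kilobase in every mouse. Cox4i1 held 99.7% of the Cox4i level (lowest mouse 99.5%), Cox6a1 98.4% of Cox6a, Cox6b1 97.9% of Cox6b, Cox7b 99.6% of Cox7b with Cox7b2, Cox8a 99.1% of Cox8 and Ndufa4 99.6% of Ndufa4 with Ndufa4l2. In the Cox7a family Cox7a2 held 57%, the supercomplex factor Cox7a2l 42% and the muscle form Cox7a1 0.995%. The c-ring of complex V, built from an identical mature peptide of 3 genes, came to 82.9% from Atp5g3, 13% from Atp5g1 and 4.11% from Atp5g2. The share of Cox8b ran from 0.118% to 2.83% of the Cox8 level among mice, the widest of these ranges as a ratio of highest to lowest, while in percentage points that of Cox7a2 was wider (54.6% to 60.3%).

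The members moved up and down together among mice, above all within the hAPOE3 groups. A score per mouse, the mean over a complex of log2 CPM centred on the 20 mice, was -0.23, -0.16, 0.43, 0.40 and 0.40 for complex I in hAPOE3 males S154 to S158 and -0.32, -0.25, -0.34, 0.27 and 0.35 in hAPOE3 females S144 to S148. It was -0.04, 0.05, -0.17, -0.10 and 0.03 in hAPOE4 males S174 to S178 and -0.09, -0.12, 0.01, -0.12 and 0.00 in hAPOE4 females S164 to S168. The hAPOE3 males S156, S157 and S158 and the hAPOE3 females S147 and S148 thus lay above every hAPOE4 mouse, and S154, S144, S145 and S146 lay below every hAPOE4 mouse.

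**Figure D2:**
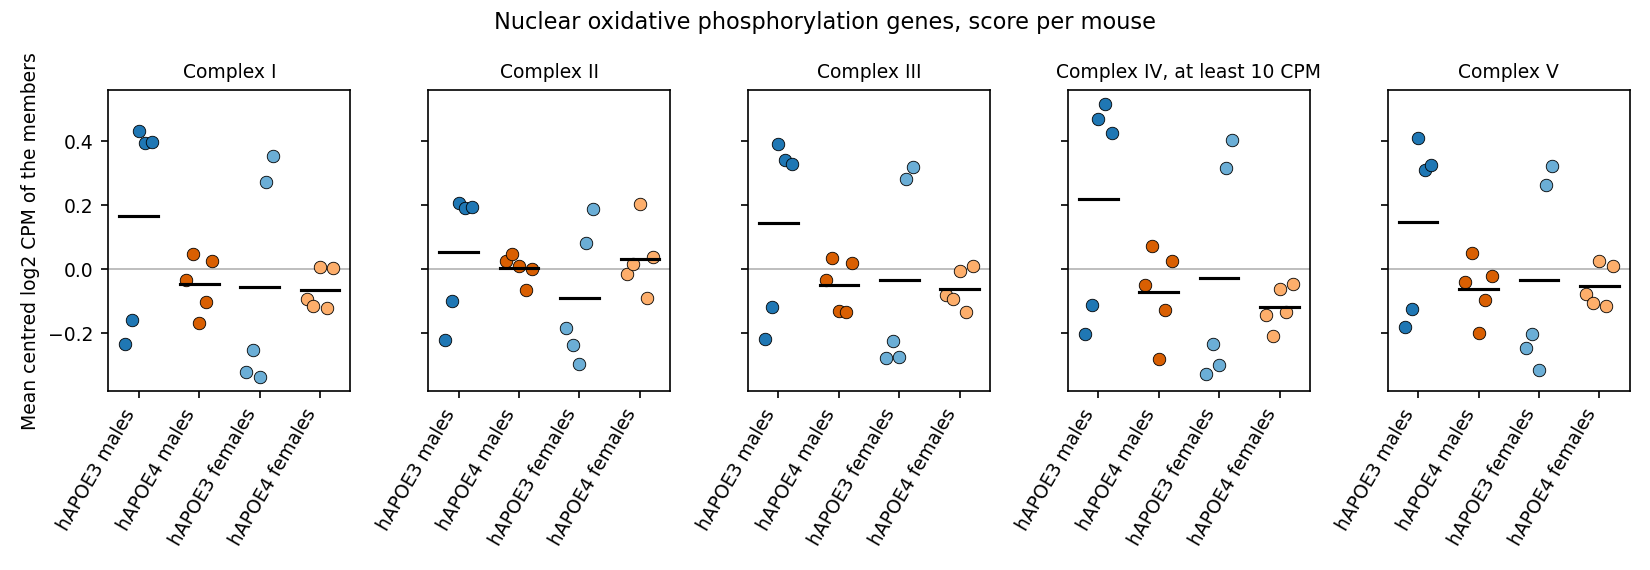
Score per mouse (mean centred log2 CPM) of complexes I to V in the 4 groups, with complex IV over its 12 members of at least 10 CPM. Points are mice and bars group means, and in each complex the hAPOE3 mice split into the same 5 high and 5 low points, with the narrowest split in complex II.

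The same 5 hAPOE3 mice were high for all 5 complexes. For complex V the scores were -0.18, -0.12, 0.41, 0.31 and 0.33 in hAPOE3 males and -0.25, -0.20, -0.31, 0.26 and 0.32 in hAPOE3 females, against a range from -0.20 to 0.05 in the 10 hAPOE4 mice. Complex III scores ran from -0.28 to 0.39 in hAPOE3 mice and from -0.135 to 0.04 in hAPOE4 mice. For the 12 complex IV members of at least 10 CPM they were -0.20, -0.11, 0.47, 0.52 and 0.43 in hAPOE3 males and -0.33, -0.23, -0.30, 0.32 and 0.41 in hAPOE3 females. Complex II had the narrowest range, with -0.22, -0.10, 0.21, 0.19 and 0.20 in hAPOE3 males and -0.18, -0.24, -0.30, 0.08 and 0.19 in hAPOE3 females. In hAPOE4 mice its scores ran from -0.089 in S167 to 0.205 in S166, which lay among the high hAPOE3 mice. Because these 5 mice were told apart by the members' own level, what follows of them is a description with no test. Total counts ran from 40388894 to 52520279 in the 5 high mice and from 35778879 to 41707676 in the 5 low ones. The part of library size in the split was not tested.

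Of the 75 members of at least 10 CPM, 69 (92%) had each of those 5 mice above each of the other 5 hAPOE3 mice. The count was 33 of 35 in complex I, 3 of 4 in II, 8 of 9 in III, 12 of 12 in IV and 13 of 15 in V. The pattern was not limited to the members: 96.3% of 81 ribosomal protein genes showed it, against 16.4% of the other 10524 genes of at least 10 CPM, the ribosomal ones among them. S156 was among the 5 highest of the 10 hAPOE3 mice for 75 of 75 members, and S146 for 1.

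Transcript length moved with this split. Of the 75 members, 48 had transcripts under 1 kilobase, 21 of 1 to 2, 6 of 2 to 4 and 0 over 4. In the 5 high mice the median of other genes under 1 kilobase lay between 0.26 and 0.32 (centred log2 CPM) and that of genes over 4 kilobases between -0.225 and -0.15. In the 5 low hAPOE3 mice the same medians lay between -0.25 and -0.125 and between 0.06 and 0.15. The members' SD of log2 CPM over the 10 hAPOE3 mice had a median of 0.37 for members under 1 kilobase, 0.29 for 1 to 2 and 0.22 for 2 to 4 kilobases, against 0.12, 0.11 and 0.12 over the 10 hAPOE4 mice. The part of transcript length in the members' differences was not tested beyond these values.

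**Figure D3:**
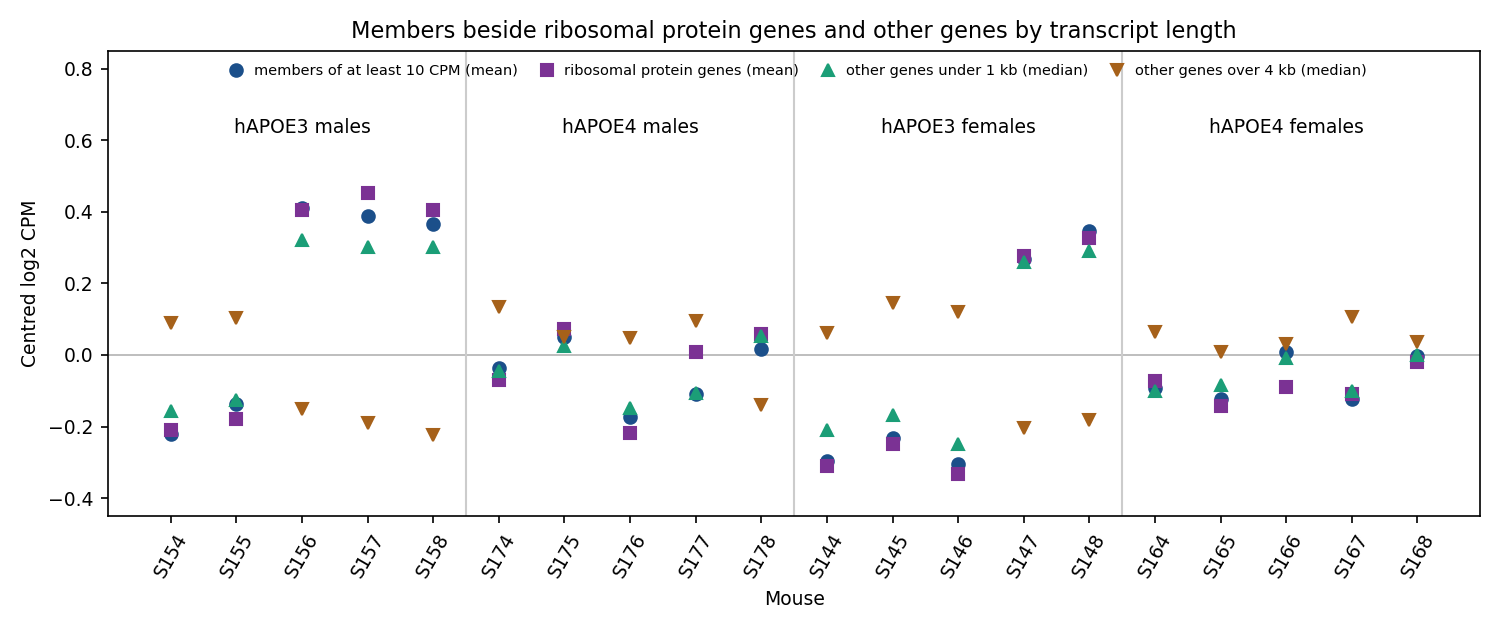
Centred log2 CPM in each of the 20 mice for the members of at least 10 CPM, ribosomal protein genes, other genes under 1 kilobase and other genes over 4 kilobases. Members, ribosomal protein genes and short genes lie on the same side of 0 in each hAPOE3 mouse, at 0.26 or more in S156, S157, S158, S147 and S148, where genes over 4 kilobases lie at -0.15 or lower.

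Spread within groups followed. The median SD of a member's log2 CPM was 0.34 in hAPOE3 males and 0.34 in hAPOE3 females, against 0.14 in hAPOE4 males and 0.10 in hAPOE4 females (n = 5 each). The SD was larger in hAPOE3 than in hAPOE4 mice for 70 of 75 members in males and 71 of 75 in females, while this held for 60.1% and 70.5% of all genes of at least 10 CPM. The hAPOE3 males, which held S156, S157 and S158, had the highest group mean for 66 of 75 members. The lowest mean was that of hAPOE4 females for 36, of hAPOE3 females for 20 and of hAPOE4 males for 18. These counts were not made over all genes.

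Against hAPOE3 males, hAPOE4 males had lower estimates for 78 of the 83 members tested, but no member passed the threshold. The median log2 fold change was -0.26, beside 0.002 over all 21724 genes. By edgeR's quasi-likelihood test 0 members had an adjusted p under 0.05 (0.621% of all genes did), 11 were lower at an unadjusted p under 0.05 (4.56% of all genes) and 0 were higher (4.5% of all genes). Of the members, 0 had groups without overlap (1.44% of all genes). Per complex the medians were -0.26 (I, 34 of 35 lower), -0.07 (II, 3 of 4), -0.26 (III, 8 of 9), -0.30 (IV, 19 of 19) and -0.25 (V, 14 of 16).

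**Figure D4:**
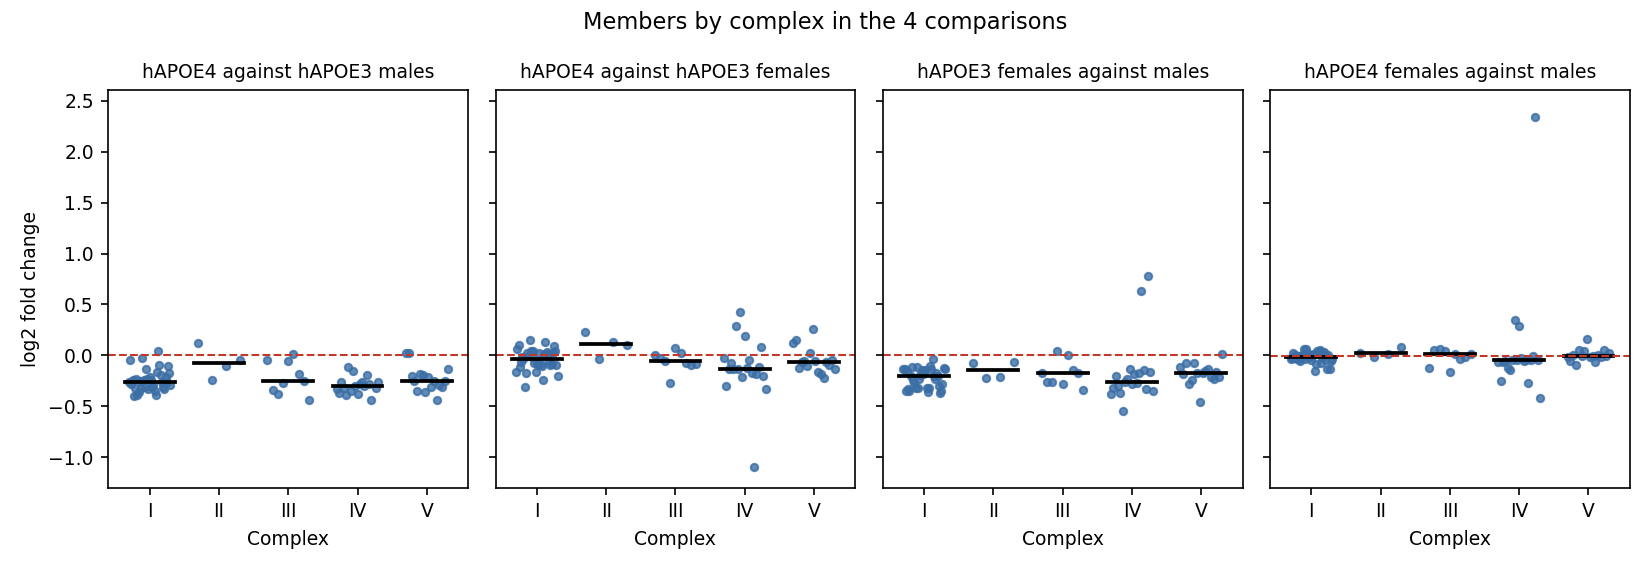
Log2 fold change of the 83 tested members by complex in the 4 comparisons. Points are genes, bars the median of each complex, and the dashed line the median of all genes tested. Cox8b, the lowest member in hAPOE4 against hAPOE3 males at -1.48, falls below the axis and is not drawn. The points of complexes I, III, IV and V lie mostly below 0 in hAPOE4 against hAPOE3 males and in hAPOE3 females against males, and around 0 in the other comparisons, where Cox8b lies at 2.34 between hAPOE4 females and males.

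The member with the smallest p was Atp5j2, a membrane subunit of the ATP synthase (chromosome 5, 145183698 to 145192062 on GRCm38, protein coding). Atp5j2 measured 93.3, 101, 163.7, 166.6 and 165.7 CPM in hAPOE3 males and 99.1, 113, 86.4, 102 and 108 CPM in hAPOE4 males. S156, S157 and S158 were above all hAPOE4 males, and the other 2 hAPOE3 males lay within the range of the hAPOE4 males. Its log2 fold change was -0.44 ± 0.16 (SE, edgeR, adjusted p = 0.398). Ndufa5, an accessory subunit of the matrix arm of complex I, measured 51.9, 50.7, 80.8, 76.2 and 65.5 CPM in hAPOE3 males and 52.5, 58, 41, 50.9 and 46.5 CPM in hAPOE4 males. Again S156, S157 and S158 were the mice above the hAPOE4 males, with a log2 fold change of -0.39 ± 0.15 (edgeR, adjusted p = 0.412). Cox8a showed the same order, with 256, 298, 419, 479.6 and 396 CPM in hAPOE3 males and 286, 310.4, 214, 255 and 298 CPM in hAPOE4 males (log2 fold change -0.44 ± 0.18, edgeR adjusted p = 0.473). The other members at an unadjusted p under 0.05 were Ndufa6 and Ndufc1 of complex I, Uqcrb of III, Cox6b1, Cox7b and Ndufa4 of IV, and Atp5c1 and Atp5h of V, with log2 fold changes between -0.20 and -0.39.

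By the median per subunit role, accessory or small subunits lay lower than catalytic ones in complexes I and III, a difference that was not tested. In complex II the medians were close, at -0.06 for Sdha with Sdhb and -0.07 for the membrane anchors, and Sdhb was the lowest gene at -0.24. The 28 accessory subunits of complex I had a median of -0.29, with 28 of 28 lower, and the 7 catalytic core subunits -0.17, with 6 of 7 lower. Ndufs1, the largest of the core subunits, measured between 116 and 166.9 CPM in hAPOE3 males and between 114 and 162 CPM in hAPOE4 males, a log2 fold change of 0.05 ± 0.11 within wide overlap. In complex III the 5 small subunits had a median of -0.34, with Uqcrq lowest at -0.43 ± 0.21 (SE), and the 4 core proteins and catalytic subunits -0.05, with Uqcrc2 at 0.02 ± 0.09. In complex V the 8 genes grouped as stalk and other membrane subunits, with Atp5s placed among them, had -0.27 and the 3 c-ring genes -0.21. The 5 F1 genes had -0.20, close to the c-ring genes. They ran from Atp5e at -0.35 to Atp5b at 0.02 ± 0.11, with Atp5c1 (the central stalk) at -0.20 ± 0.09. Members under 1 kilobase had a median of -0.30, those of 1 to 2 kilobases -0.17 and those of 2 to 4 kilobases -0.01, beside -0.19, -0.09 and 0.01 in other genes of the same lengths and 0.11 in genes over 4 kilobases.

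With a single mouse left out, the median ranged from -0.36 to -0.20. Without the 5 high hAPOE3 mice it was 0.13, and without the 5 low ones -0.48, both moves in the direction that choosing these mice by the members' own level fixes. Other lists moved in the same comparison. Ribosomal protein genes were lower for 79 of 83 (median -0.27) and blood markers for 6 of 6 (-1.17). Striatal neuron markers were lower for 8 of 8 (-0.89, 3 at an unadjusted p under 0.05). None of these 3 lists held an adjusted p under 0.05. Oocyte markers were higher for 8 of 8 tested (median 3.22). Of them 6 had an adjusted p under 0.05 by edgeR's test (0.621% of all genes), and their sum was high in S175 to S178 only. Striatal neuron markers summed to 738 CPM in S158, against at most 266 CPM in the other mice, and oligodendrocyte markers summed to 13870 CPM in S158 and 10150 CPM in S176, against at most 6793 CPM in the other males. The part of these cells in the members' estimates was not tested.

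Between the females the members differed less, and Sdha was the member with the smallest p. Against hAPOE3 females, hAPOE4 females had lower estimates for 55 of 83 members, with a median log2 fold change of -0.06 beside 0.001 over all genes. By edgeR's test 0 members had an adjusted p under 0.05 (0.667% of all genes did), 3 were lower (6.54% of all genes) and 1 was higher (3.57% of all genes) at an unadjusted p under 0.05. The medians were -0.035 in complex I (21 of 35 lower), 0.12 in II (1 of 4), -0.05 in III (6 of 9), -0.13 in IV (15 of 19) and -0.06 in V (12 of 16). Without S148 the median over all members was 0.05, and by limma on the deposited normalized counts it was -0.008. It was 0.23 without the 5 high hAPOE3 mice and -0.41 without the 5 low ones, whose choice again fixes the direction. Choroid plexus markers were higher in hAPOE4 females for 12 of 12 (median 0.87), endothelial markers for 8 of 10 (0.23, 3 at an unadjusted p under 0.05), and blood markers lower for 5 of 6 (-1.84, 4 at an unadjusted p under 0.05), none with an adjusted p under 0.05. The 13 subunit genes of the mitochondrial genome were all lower (median -0.35, 11 at an unadjusted p under 0.05). None of the 13 had an adjusted p under 0.05. Of 8 nuclear retained and long noncoding RNAs 7 were lower (median -0.16), 2 of them with an adjusted p under 0.05 by edgeR's test. The part of these lists in the members' estimates was not tested.

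Sdha (chromosome 13, 74322254 to 74350280 on GRCm38, minus strand) encodes the flavoprotein of succinate dehydrogenase, shared by the citric acid cycle and the respiratory chain. It measured 364, 357, 361, 346 and 372 CPM in hAPOE3 females and 414, 406, 479, 399 and 411 CPM in hAPOE4 females. Every hAPOE4 female lay above every hAPOE3 female, and Sdha was the only member among 83 with no overlap between the groups. This was a smaller share than the 3.27% of all genes that had none. The log2 fold change was 0.23 ± 0.07 (SE, edgeR, unadjusted p = 0.00474, adjusted p = 0.194). DESeq2's Wald test put it past the threshold, with a log2 fold change of 0.24 and an adjusted p of 0.026, while the adjusted p of the other alternatives ranged from 0.167 to 0.494. Without S166, the highest mouse and the one with the largest sum of choroid plexus markers (9570 CPM), the log2 fold change was 0.18. In males Sdha measured 363, 389, 407, 379 and 359 CPM in hAPOE3 and 428, 425, 432, 416 and 369 CPM in hAPOE4 mice, where S178 lay among the hAPOE3 values, with a log2 fold change of 0.12 ± 0.07 (edgeR, adjusted p = 0.6). The split of the hAPOE3 mice did not show in Sdha, whose highest hAPOE3 female was S148 and lowest S147. An antisense gene, Gm16125, overlaps Sdha, and reads of both cannot be told apart without strand.

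**Figure D5:**
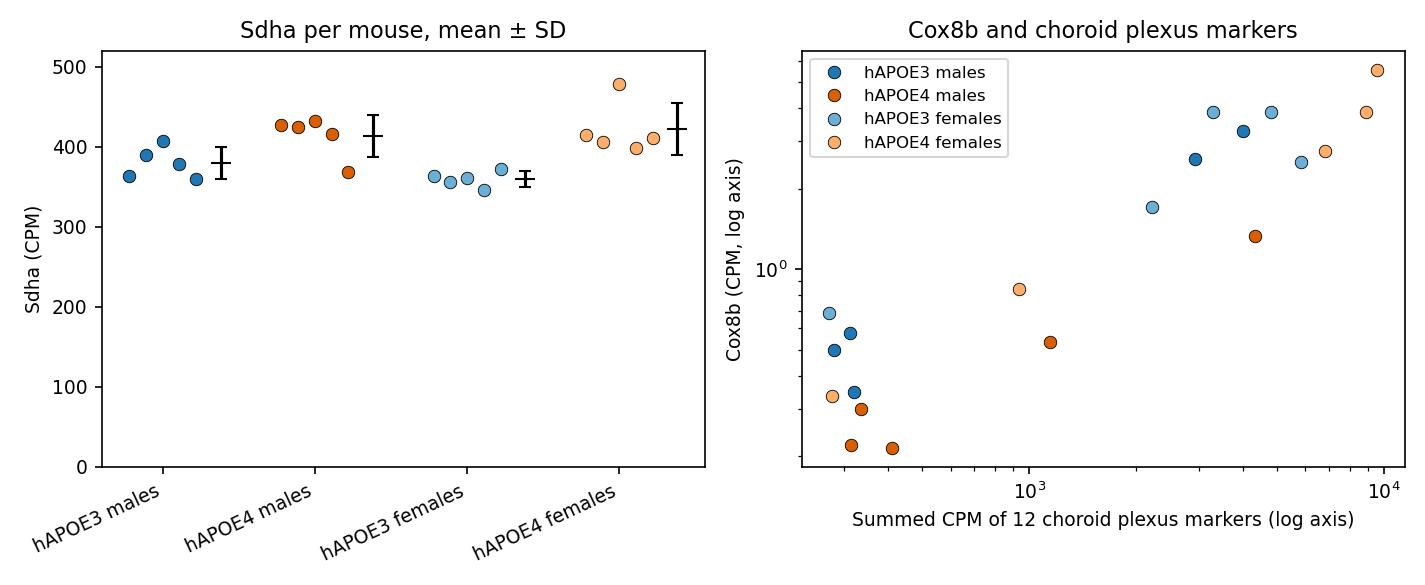
Left, Sdha in CPM per mouse with the mean ± SD of each group beside the points; the 5 hAPOE4 females (399 to 479 CPM) lie above the 5 hAPOE3 females (346 to 372 CPM). Right, Cox8b in CPM against the summed CPM of 12 choroid plexus markers in the 20 mice, both on log axes; Cox8b is between 0.214 and 0.685 CPM in the 8 mice with few choroid plexus transcripts and reaches 5.56 CPM in the others.

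The female groups overlapped in the other 3 complex II subunits. Sdhb measured 83, 79.4, 77.4, 109 and 114 CPM in hAPOE3 females and 86.7, 86.4, 101, 80.8 and 98 CPM in hAPOE4 females, with a log2 fold change of -0.03 ± 0.13 (edgeR, adjusted p = 0.967). S147 and S148 were the highest of the 10, as in the other complexes. Of the membrane anchors, Sdhc had a log2 fold change of 0.13 ± 0.17 and Sdhd of 0.10 ± 0.10, with adjusted p of 0.867 and 0.798 (edgeR). Sdhd measured 64.5, 61.6, 60.5, 74.9 and 85.1 CPM in hAPOE3 females and 72.6, 73.5, 82.9, 71.8 and 71.5 CPM in hAPOE4 females, where S166 was highest in the second group and S148 in the first. Sdhc measured 64.8, 62.3, 54.6, 93.1 and 97.9 CPM and 77.6, 85.1, 92.7, 71 and 80.9 CPM in the same groups, and S146 was the lowest of the 10.

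The other members at an unadjusted p under 0.05 in females were lower in hAPOE4. Cox7b2, a testis-enriched form of a complex IV subunit, measured 0.218, 0.453, 0.171, 0.392 and 0.483 CPM in hAPOE3 females and 0.0846, 0.323, 0.0645, 0.188 and 0.143 CPM in hAPOE4 females, levels of a few counts per library, with a log2 fold change of -1.10 ± 0.47 (edgeR, adjusted p = 0.421). Uqcrb, a small complex III subunit named for ubiquinone binding, measured 51.5, 56.3, 51.3, 70.2 and 76.2 CPM and 51.9, 45.9, 51.6, 55.2 and 48.5 CPM. S147 and S148 lay above all other females, and the log2 fold change of -0.27 ± 0.12 (edgeR, adjusted p = 0.434) stood beside -0.27 ± 0.12 in males. For Ndufa5 the values were 46.4, 53.5, 52.1, 71.2 and 77.3 CPM and 48.9, 43.2, 48.2, 50.2 and 52.6 CPM, with a log2 fold change of -0.31 ± 0.15 (edgeR, adjusted p = 0.492). The 12 main subunits of complex IV were all lower by estimate, with a median of -0.13 and Cox6c lowest at -0.21 ± 0.15. Ndufa9, a complex I subunit at the joint of its arms, was highest of that complex at 0.15 ± 0.08.

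Across the sexes, 55 of 83 members (66.3%) had a lower estimate in hAPOE4 in both, beside 34.1% of all genes tested. Since 78 of 83 were lower in males, this count was set mainly by the females, where the median was 0.05 without S148. The members rose and fell together among mice, so the count is not one of independent genes. Only 5 members were higher in both, among them Sdha and Atp5b.

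In hAPOE3 mice, females had lower estimates than males for 78 of 83 members, with a median of -0.20 beside 0.003 over all genes. By edgeR's test 0 members had an adjusted p under 0.05 (0.0414% of all genes), 0 were lower (2.9% of all genes) and 0 higher (2.32% of all genes) at an unadjusted p under 0.05, and 0 had groups without overlap (0.723% of all genes). The smallest p belonged to Ndufb8, with 76.9, 92.4, 134, 131 and 145.8 CPM in males and 72.4, 69, 68.4, 119.6 and 121 CPM in females. Both groups held high and low mice, 3 of 5 males and 2 of 5 females being high, and the ranges overlapped. Its log2 fold change was -0.36 ± 0.18 (edgeR, adjusted p = 0.805). Next came Cox7a2l at -0.27 ± 0.13 and the muscle form Cox6a2 at -0.55 ± 0.28, also with adjusted p = 0.805. The medians were -0.20 in complex I, -0.14 in II, -0.17 in III, -0.26 in IV and -0.17 in V. Without the 5 high mice the median over all members was -0.08 and without the 5 low ones -0.10. Ribosomal protein genes were lower in females for 81 of 83 (median -0.25), oligodendrocyte markers for 10 of 10 (-0.46, 3 at an unadjusted p under 0.05), striatal neuron markers for 8 of 8 (-0.80) and thalamic neuron markers for 8 of 8 (-0.64), while choroid plexus markers were higher for 12 of 12 (1.29, 3 at an unadjusted p under 0.05). None of these had an adjusted p under 0.05, and their part in the members' estimates was not tested.

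In hAPOE4 mice females and males were close, with a median of -0.013 beside -0.009 over all genes and 51 of 83 members lower in females. By edgeR's test 0 members had an adjusted p under 0.05 (0.437% of all genes), 0 were lower (3.46% of all genes) and 1 was higher (2.35% of all genes) at an unadjusted p under 0.05, and 0 had groups without overlap (0.723% of all genes). The medians were -0.013 in complex I, 0.023 in II, 0.013 in III, -0.05 in IV and -0.004 in V. The 12 main complex IV subunits were all lower in females by estimate, by a median of -0.05. Oocyte markers were lower in females for 7 of 8 tested (median -3.41). Since these may have passed the filter through the males where they are high, no test of them is given. Thalamic neuron markers were lower for 8 of 8 (-1.16, 6 at an unadjusted p under 0.05). Choroid plexus markers were higher for 12 of 12 (1.85, 5 at an unadjusted p under 0.05). Neither of the latter lists held an adjusted p under 0.05. The part of these lists was not tested.

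The 1 member at an unadjusted p under 0.05 was Cox8b (chromosome 7, 140898945 to 140900446 on GRCm38, minus strand). It measured 2.77, 3.86, 5.56, 0.844 and 0.335 CPM in hAPOE4 females and 0.221, 0.301, 1.33, 0.215 and 0.536 CPM in hAPOE4 males, from 9 to 259 counts per library. The females S164, S165 and S166 lay above all males, while S167 and S168 lay within the male range. The log2 fold change was 2.34 ± 0.75 (edgeR, unadjusted p = 0.00512, adjusted p = 0.409). Choroid plexus markers moved with it: of the 12, all were tested and none was at 0, and their sum ran from 278 to 9570 CPM in hAPOE4 females and from 315 to 4330 CPM in hAPOE4 males. Over the 20 mice Cox8b lay between 0.214 and 0.685 CPM where that sum was under 500 CPM (8 mice) and between 0.536 and 5.56 CPM elsewhere (12 mice). Muscle markers, of which 9 of 10 were tested and none was at 0 in all mice, summed to between 16.5 and 21.6 CPM in hAPOE4 females and between 13.3 and 37.2 CPM in hAPOE4 males. The part of either tissue in the level of Cox8b was not tested.

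The test of the interaction asked whether the APOE difference itself differed between the sexes, and it uses the same 4 groups as the comparisons above. No member passed: by edgeR's test 0 had an adjusted p under 0.05 (0.184% of all genes), and at an unadjusted p under 0.05 there were 0 higher (0.47% of all genes) and 0 lower (2.07% of all genes). The APOE estimate was more positive in females than in males for 81 of 83 members, with a median of 0.18 beside -0.001 over all genes, and between 0.12 and 0.21 in the 5 complexes. Ribosomal protein genes had the same sign for 79 of 83, with a median of 0.21. Without the 5 high hAPOE3 mice the median over all members was 0.082, and without the 5 low ones 0.072. The members rose and fell together among mice, so 81 of 83 is not a count of independent genes. The member with the smallest p was Atp5g2, at 0.62 ± 0.33 (edgeR, adjusted p = 1), followed by Ndufa9 at 0.18 ± 0.11 and Cox8b at 1.56 ± 1.01. For the 13 subunit genes of the mitochondrial genome, which supply the remaining subunits of complexes I and III to V, the median was -0.20, with 13 of 13 lower.

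Genes that build or regulate the complexes were listed by role, and their difference from the subunits was not tested. In males, none of the listed genes passed the threshold, and 11 of 17 assembly factors of complex I were lower in hAPOE4 (median -0.11), 4 of 4 of complex II (-0.13), 5 of 6 of complex III (-0.09), 16 of 21 of complex IV (-0.10) and 4 of 5 of complex V (-0.06). Cytochrome c and the ATP, phosphate and outer membrane carriers were lower for 8 of 8 (median -0.12), with Cycs, the somatic cytochrome c, at -0.30. Regulators such as Ppargc1a, Nrf1, Gabpa and Tfam were lower for 6 of 16 (median 0.03). Their smallest p was that of Nfe2l1 (edgeR, adjusted p = 0.62).

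In females the medians of these lists were 0.001, -0.07, -0.13, -0.001 and 0.007 for the assembly factors of complexes I to V, -0.009 for cytochrome c and carriers and 0.03 for the regulators. Of them 0 passed the threshold. The smallest p belonged to Ndufaf7, a methyltransferase needed to assemble complex I, with a log2 fold change of 0.26 (edgeR, adjusted p = 0.172), then to Taco1, a translation activator of a complex IV subunit, with 0.50 (adjusted p = 0.273) and Cycs with -0.32 (adjusted p = 0.316). None of these genes passed in the comparisons between the sexes or in the interaction.

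The pseudogenes Uqcrh-ps1 and Uqcrh-ps2 lie on chromosomes 15 and 2, far from Uqcrh on chromosome 4, and reads could be split among the 3 copies. Uqcrh-ps1 reached at most 0.0571 CPM. Uqcrh-ps2 measured 0.161, 0.158, 0.0721, 0.0427 and 0.148 CPM in hAPOE3 males, 0.0883, 0.251, 0.322, 0.62 and 0.731 CPM in hAPOE4 males, 0, 0, 0.0571, 0.0245 and 0.063 CPM in hAPOE3 females and 0.106, 0.108, 0.15, 0.0937 and 0.167 CPM in hAPOE4 females. Its 4 highest values were those of S175 to S178, the males with high oocyte markers. Of the 18 oocyte markers none was at 0 in all mice and 8 were tested. With at most 30 counts per library it did not pass the filter and was not tested. Without S174 it passed through the 4 other hAPOE4 males, where it is high, so that no test of it is given. Parent gene and pseudogene did not move alike: Uqcrh measured 116, 129.7, 108, 125 and 122 CPM in hAPOE4 males. The part of oocyte transcripts was not tested.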

How the data were processed

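Hippocampal RNA of 20 mice was sequenced from polyA libraries with paired-end reads of 75 bases. The authors assigned reads to mouse transcripts with Salmon 0.91 (per the submitters' processing notes) and summed them per gene with tximport. The deposited table holds estimated counts, already whole numbers, without normalization. The other deposited table, a signal of counts normalized by the authors with DESeq2, served for an alternative only. Each column was matched to a mouse by its title, and 0 columns were left out.

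The test was edgeR's quasi-likelihood test (version 4.0.16, under R 4.3.3) with TMM factors, the filter filterByExpr by group, glmQLFit and glmQLFTest on 1 mean per group over all 20 mice, with Benjamini-Hochberg adjustment over 21724 genes and a threshold of 0.05. The p-values set each difference against 1 estimate per gene of the spread between mice, shared by all groups. The groups differed in that spread: the median SD of a member was 0.34 in both hAPOE3 groups, 0.14 in hAPOE4 males and 0.10 in hAPOE4 females. The p-values therefore do not measure the spread of only the groups compared. The study fitted sex, APOE and their interaction in DESeq2, and DESeq2 1.42.0 and limma 3.58.1 were alternatives. The edgeR fit was first run on simulated counts with known changes, for hAPOE4 against hAPOE3 males only. Its genes were drawn independently with the same spread in all groups, unlike the members here, so it does not cover these features. No library repeated another, the lowest chi-square per degree of freedom among 190 pairs being 7.28.

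Scores average the centred log2 CPM of genes (edgeR's prior count set to 2). Positions and lengths are from a GRCm38 annotation that matched 31059 of 33119 symbols, and 37 members overlap another annotated gene. The kit's strand setting is not given in the sources used here.

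The members and lists were chosen with earlier results of these data known. The genes named are, in each comparison, the members past the threshold, the highest and lowest member of each complex with at least 10 CPM and the 3 members with the smallest p, with the Sdh genes, isoform families and extremes of level. Grouping by subunit role, and the mice left out together, were chosen after values were seen, as were Uqcrh-ps2 and the members listed at an unadjusted p under 0.05. Proteins were not used here, since no sequences of them were given.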

Additional observations from a re-analysis of the deposited data

Results flagged for a closer look

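Among 184 sets of 5 mice (41 members and 5 complex scores in 4 groups), 8 held a mouse whose gap to the next, over the range of its group, was above 0.71. The cutoff marks about 1 set in 20 when values are independent and normal. These sets share mice and hold genes that move together, so the count of 8 was not compared with chance. In hAPOE4 females, S166 was high for Sdha with 479 CPM against 399 to 414 CPM in the other 4, and for Sdhd with 82.9 CPM against 71.5 to 73.5 CPM. S165 was low for Cox7a2 with 92.5 CPM against 104 to 106 CPM. In hAPOE4 males, S178, a mouse with high thalamic neuron markers, was low for Sdha with 369 CPM against 416 to 432 CPM and for Ndufs1 with 114 CPM against 146.6 to 162 CPM, and S176 was high for Cox7a1 with 1.63 CPM against 0.975 to 1.04 CPM. In hAPOE3 females, S148 was high for Ndufa9 with 105 CPM against 86.7 to 91.6 CPM, and S147 for Ndufa4l2 with 2.23 CPM against 1.31 to 1.5 CPM.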

How the results depend on the processing

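No member passed the threshold in any of the 5 comparisons under the other normalization, the filters, limma or the left-out mitochondrial genome, nor, in the 4 comparisons other than the interaction, with the groups fitted alone, and DESeq2's Wald test added 1 member, Sdha in females. Leaving out each mouse in turn gave 0 to 1 members in males and 0 to 1 between hAPOE4 females and males, the 1 being Uqcrh-ps2 without S174, which then passed the filter through the group where it is high and supports no call. Of 920 recomputed values of named members, 28 changed sign with neither value past the threshold.

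In males the median ranged from -0.27 to -0.25 over the settings and from -0.36 to -0.20 with a mouse left out. In females it ranged from -0.06 to -0.008 (limma on the deposited normalized counts) and from -0.13 to 0.05, being above 0 without S148. Between hAPOE3 females and males it ranged from -0.305 to -0.135 with a mouse left out, between hAPOE4 females and males from -0.051 to 0.013, and for the interaction from 0.12 to 0.295. Without the 5 hAPOE3 mice of high score the medians were 0.129 in males and 0.229 in females, and without the 5 of low score the female median was -0.406. These exclusions were chosen after seeing the data, by the members' own level, which fixes their direction.

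Counts over all genes depended more on the setting. In males 135 genes passed, against 45 with the 2 groups alone and 232 by DESeq2, and 99 to 288 with a mouse left out (most without S174). In females 27 higher and 118 lower genes passed, against a sum of 102 to 345 over the settings (most by DESeq2) and 74 to 257 with a mouse left out. Between the sexes 9 passed in hAPOE3 mice (8 to 23 over the settings) and 95 in hAPOE4 mice (32 to 189, and up to 275 without S174), and 40 passed the interaction (16 to 64, and up to 118 without S174). No paired analysis was possible because the groups hold different mice and the labels number each mouse once, with nothing that ties a mouse of one group to a mouse of another. Each group held 5 mice, and the share of counting noise in the spread between them was not measured. Cox7b2, Uqcrh-ps1 and Uqcrh-ps2 rest on few counts.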
